A study of Mus musculus with 768 samples.

Results

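Genes through which astrocytes handle glutamate and other amino acid transmitters, water, potassium and cell coupling were followed by name, 9 of the 32679 genes in the deposited table of counts. They are the glutamate transporters Slc1a2 and Slc1a3, the glutamine synthetase gene Glul, the amino acid transporter gene Slc7a10, the GABA transporter gene Slc6a11, the water channel gene Aqp4, the potassium channel gene Kcnj10, and the connexin genes Gja1 and Gjb6. The genes were listed by name for their function, with earlier results of these data known. The study sorted single cells of the dentate gyrus that carried green fluorescent protein under Nestin regulatory sequence, taken at 2 months of age from 8 male Nestin:GFP mice, and read their RNA well by well with Smart-seq2. The mimic group (mice 2, 4, 6 and 8) had received a miR-132 mimic and the control group (mice 1, 3, 5 and 7) a negative control oligonucleotide, each as 150 pmol in 3 µl with lipofectamine 2000, once a week for 5 weeks. All groups carried the reporter, no mice without injection were analysed here, and the series text places "AD" before the tissue name without saying what it stands for. The labels give separate mouse numbers, so the mouse was the replicate, with 2 mice of each treatment sorted on 17 April 2018 and 2 on 19 April 2018.

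Astrocytes take up the glutamate that neurons release, and they turn it into glutamine, which neurons can take back to make new transmitter. They also clear potassium and move water, partly at the end-feet that wrap blood vessels, and gap junctions built from connexins couple them into networks. In the adult dentate gyrus, neural stem cells have many features of astrocytes, and Hopx, a small homeodomain protein, is a common marker of these stem cells, although astrocytes can use it as well. miR-132 is a small RNA that can lower the levels of messenger RNAs whose 3' UTRs pair with its seed, bases 2 to 8.

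The mature sequence of miR-132-3p is shown because the injected mimic copies this microRNA, together with the members' sites for it. It comes from RefSeq (GRCm38.p6, chr11:75173723-75173744, plus strand), and the capitals mark the seed.
mmu-miR-132-3p: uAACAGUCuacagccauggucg
The letters that pair with the seed, GACTGTT, and the same followed by A, GACTGTTA, were searched on the transcript strand of the longest annotated 3' UTR of each gene (GENCODE M21). The 8-base form stood in 2 of the 9 members, Slc1a2 and Glul, and in 2.35% of 20989 genes, while the 7-base form stood in the same 2 members and in 10.72% of all genes. Each of the 2 members held 1 site of these forms, and the other 7 held none. A shorter form, which pairs with bases 2 to 7 and is followed by A, is part of the 8-base form. It stood 2 times in Glul and 1 time in Slc1a2, and its share over all genes was not counted. The Slc1a2 UTR measured 9250 bases and the Glul UTR 1541 bases, against a median of 961 bases over all genes, and a longer UTR has more places for a match. The sites are shown with the matching 8 bases in capitals, at GRCm38 chr2:102787400-102787407 (plus strand) for Slc1a2 and chr1:153909413-153909420 (plus strand) for Glul.
Slc1a2 site: acctaacaacaGACTGTTAtccttatcacc
Glul site: ctctgccagcaGACTGTTActttccttctg
A match of letters is a description and not a shown target.

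The table held 96 wells per mouse, where the labels report 94 sorted cells. Wells with at least 50000 counts and at least 1000 genes numbered 675 of 768, or 75 to 92 in a mouse. The median well held 646537 counts and 2741 genes, and a mouse's wells summed to between 43889169 and 66897586 counts. A class was given to a well by the highest mean level over 11 lists of marker genes, none of which holds any of the 9 genes. This gave 96 astroglia, with oligodendrocyte-like and endothelial-like wells the most numerous of the rest, and 75 pericyte-like, 38 neuroblast-like, 16 fibroblast-like, 14 oligodendrocyte precursor-like and 4 smooth muscle-like wells. One well each was microglia-like and ependymal-like, and 6 wells had no class. A further 16 wells, 2 in each mouse, had at least 10045 genes each, against at most 5015 genes in any other kept well, and stand apart as many-gene wells. The labels offer 2 ways to assign wells to mice, which put only 96 of 768 wells on the same mouse. Many wells also change treatment, mimic or control, between the 2 assignments, so every treatment result depends on this choice. The assignment through the sample descriptions is used. The treatment tests in astroglia, oligodendrocyte-like wells and all kept wells and the Hopx test were repeated under the assignment through the sample titles, while the class levels per mouse, the comparison of astroglia with oligodendrocyte-like wells, the Hopx interaction and the many-gene test are given under the descriptions alone.

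The astroglia are named from 9 markers, so their levels of these markers follow from the rule and describe the class. Aldoc, an enzyme of glycolysis enriched in astrocytes, had a count in all astroglia, and Ntsr2 in 97.9% of them, against 18.9% and 4.0% of oligodendrocyte-like wells. Gfap, a filament protein of astrocytes and radial glia, had a count in 79.2% of astroglia and in 9.6% of oligodendrocyte-like wells. Only 1 of the 96 lay within 2 log2 units of the score for another class. Leiden clusters, built without the 9 followed genes and named with the same marker lists, placed 94 of the 96 among astroglia. The astroglia came to 58 wells in mimic mice and 38 in control mice, 7 to 23 per mouse, with medians of 2643.5 and 2485 genes. The marker list does not separate stem cells from astrocytes.

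Among classes with at least 3 wells in a mouse, 8 of the 9 genes had their highest mean over mice in astroglia. Kcnj10 had its highest in oligodendrocyte-like wells. Leaving out single mice moved the count of 8 between 7 and 9. The 4 genes of the set with the highest CPM in astroglia (counts scaled by the total of the sum to 1e+06), summed over a mouse's wells, were Slc1a3 at 7566 ± 1376, Slc1a2 at 6161 ± 1348, Glul at 4152 ± 1061 and Gja1 at 2828 ± 545 (mean ± SD, n = 8 mice). Aqp4 reached 1028 ± 325.6 CPM, Gjb6 1003 ± 91.5 CPM, Slc7a10 755 ± 292.2 CPM, Kcnj10 374.1 ± 219.1 CPM and Slc6a11 370.5 ± 185.8 CPM. Gjb6 therefore had the smallest spread between mice relative to its level, and Kcnj10 the largest, with 54.5 to 738 CPM. Averaged over single wells instead, Kcnj10 was at 417 CPM in astroglia and 398 CPM in oligodendrocyte-like wells. Its order between these classes thus depended on the averaging. The only ependymal-like well held 856 CPM of Kcnj10. Long transcripts gather more reads in this full-length method, so the order by CPM depends on length. The genes were therefore also ranked per kilobase of annotated exon. On that scale Glul led with 1249 ± 319.2 CPM per kb, ahead of Slc1a3 with 886 ± 161.2, Slc1a2 with 469 ± 102.6, Gjb6 with 375.04 ± 34.2, Slc7a10 with 357.5 ± 138.4 and Gja1 with 275.7 ± 53.1. Aqp4 (164.99 ± 52.2), Slc6a11 (73.4 ± 36.8) and Kcnj10 (69.2 ± 40.5 CPM per kb) were lowest.

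**Figure D1:**
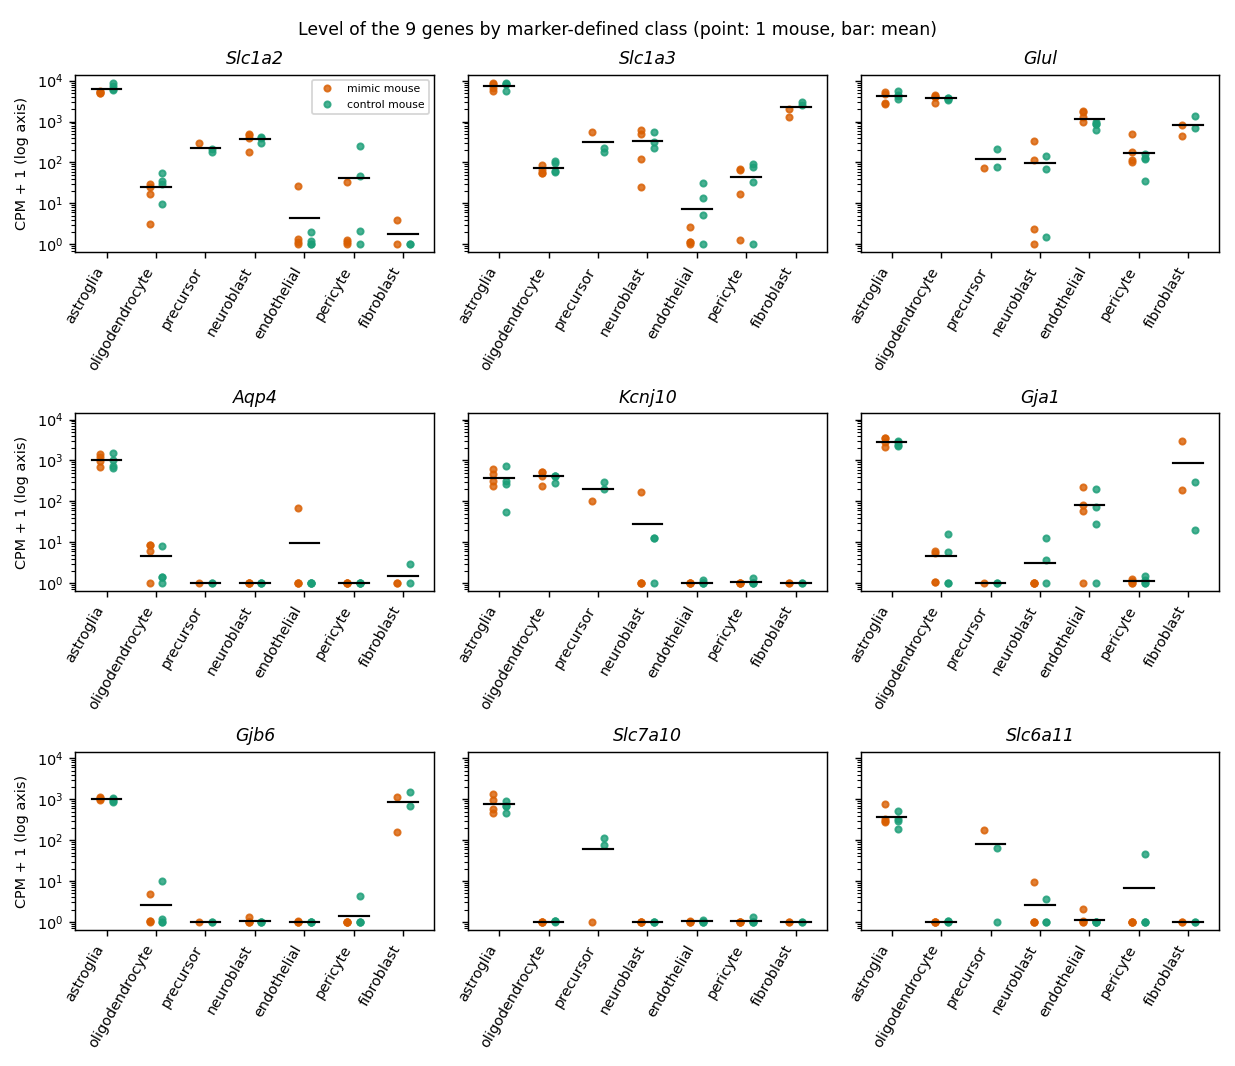
CPM plus 1 (log axis) of each of the 9 genes in 7 classes, with 1 point per mouse that had at least 3 wells of the class (mimic mice left, control mice right) and a bar at the mean. The astroglia points of Slc1a2 lie between 5003 and 8849 CPM, while Glul and Kcnj10 reach similar heights in astroglia and oligodendrocyte-like wells.

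Among the glutamate genes, Slc1a2, the main glutamate transporter of mature forebrain astrocytes, was found in 96 of 96 astroglia, with a lowest well of 1671 CPM, a median of 5314 CPM and a highest of 20615 CPM. It was the only one of the 9 with a count in every astroglial well. The next level belonged to neuroblast-like wells, with 380.5 ± 107.1 CPM (n = 7 mice) and a count in 36 of 38 wells. In cell types of the vessel wall, Slc1a2 had a count in 6 of 75 pericyte-like wells and 7.48% of endothelial-like wells, at a median depth of 624461 and 574174 counts, against 574995 counts in astroglia. Slc1a3, the glutamate transporter that radial glia also use, was present in 95 of 96 astroglia and was next highest in fibroblast-like wells, with 2237 ± 783 CPM (n = 4 mice). Slc1a3 had counts in 93.75% of the 16 fibroblast-like wells, 63.2% of neuroblast-like wells and 15 of 75 pericyte-like wells.

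Glul, which makes glutamine out of glutamate and ammonia, was shared most widely. It averaged 4152 ± 1061 CPM in astroglia and 3726 ± 488 CPM in oligodendrocyte-like wells (SD, n = 8 mice each), and the groups overlapped. Astroglia were above oligodendrocyte-like wells in 6 of 8 mice, with p = 0.398 in a two-sided exact sign-flip permutation test over mice. Endothelial-like wells followed with 1130 ± 412 CPM and fibroblast-like wells with 838 ± 401 CPM. Slc7a10, a transporter of small neutral amino acids such as glycine and D-serine, and Slc6a11, which takes up GABA, were rare in oligodendrocyte-like wells. Each had a count in 75 of 96 astroglia, against 3 and 2 oligodendrocyte-like wells (0.997% and 0.664%). Outside astroglia their highest means were 61.4 ± 56.2 CPM for Slc7a10 and 80.4 ± 91.1 CPM for Slc6a11 in oligodendrocyte precursor-like wells (n = 3 mice), each with counts in 3 of 14 wells.

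Aqp4, the water channel of end-feet, had counts in 79 of 96 astroglia and averaged 3.52 ± 3.61 CPM in oligodendrocyte-like wells, where 3.65% of wells held a count. Among classes with at least 3 wells in a mouse, endothelial-like wells had the highest mean of Aqp4 outside astroglia. That mean was 8.46 ± 23.9 CPM (n = 8 mice) and came from mimic mouse 2 alone, at 67.7 CPM. Of the endothelial-like wells, 0.935% held a count. The only ependymal-like well, left out by that limit, held 541 CPM of Aqp4. Kcnj10, the potassium counterpart of Aqp4, did not follow it. Kcnj10 averaged 374.1 ± 219.1 CPM in astroglia and 405 ± 104.1 CPM in oligodendrocyte-like wells, a difference within the spread between mice (exact sign-flip p = 0.383, n = 8), and 196.4 ± 95.6 CPM in precursor-like wells (n = 3). Counts of Kcnj10 stood in 78.1% of astroglia and 90.7% of oligodendrocyte-like wells, but in 1.87% of endothelial-like and 1.33% of pericyte-like wells. The connexin gene Gja1 had counts in 95 of 96 astroglia and Gjb6 in 73 of 96. Beyond astroglia, Gja1 averaged 82.6 ± 86.4 CPM in endothelial-like wells, with counts in 17.8% of them.

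The fibroblast-like wells carried part of the set. In the 4 mice with at least 3 such wells, Gjb6 averaged 879 ± 592 CPM, Gja1 853 ± 1373 CPM and Slc1a3 2237 ± 783 CPM, against 1003 ± 91.5, 2828 ± 545 and 7566 ± 1376 CPM in the astroglia of 8 mice. The Gja1 mean came mostly from mimic mouse 2, at 2905 CPM. Mimic mouse 8 had 185.9 CPM of Gja1 in these wells, and control mice 5 and 7 had 18.8 and 301.5 CPM. Gjb6 and Slc1a3 had counts together in 9 of 16 wells, and Gjb6 and Gja1 in 8 of 16. Slc7a10, Slc6a11 and Kcnj10 had no count in any of the 16 wells, which allows a share of up to 18.75%, and Slc1a2 had a count in 1. Of the 9 astroglia markers, 7 were at 0 in all 16 of these wells, among them Aldoc, Ntsr2 and Gfap. The other 2 were F3, with counts in 62.5% of fibroblast-like wells and a mean of 724 CPM over them, and Cldn10, with counts in 6.2% and a mean of 0.09 CPM.

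No neighbouring pair in the order of class means passed after adjustment over all 54 pairs of neighbours tested, since the lowest adjusted p was 0.169. With 8 mice the smallest p that this exact test allows is 0.0078, and with 3 mice it is 0.25, so the order of the classes is a description.

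**Figure D2:**
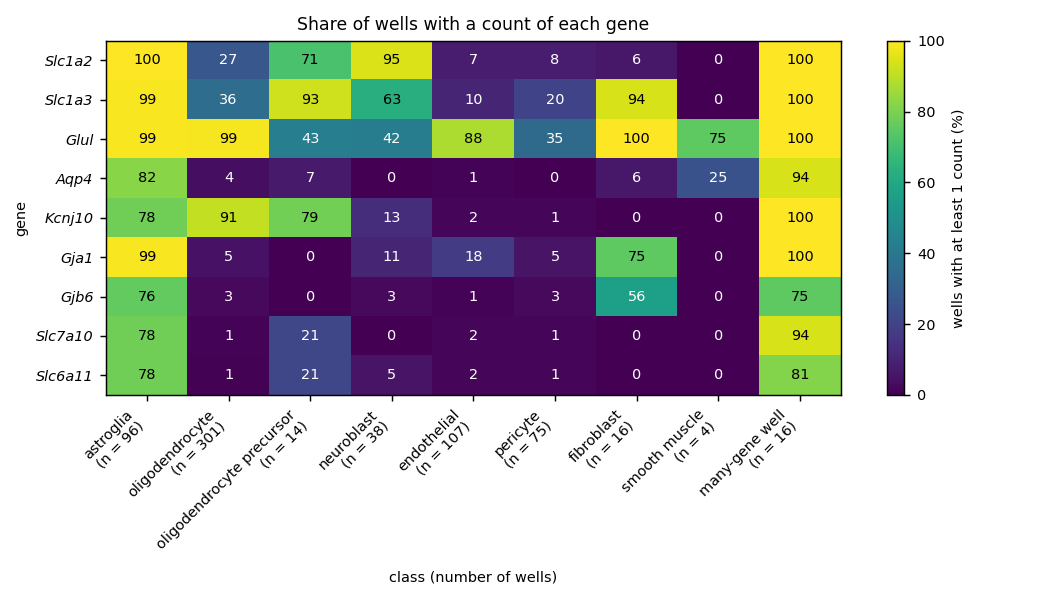
Percent of wells with at least 1 count of each gene (rows) in 9 sets of wells (columns, with their number of wells), on a colour scale of 0 to 100%. Glul spreads over several classes, and Gja1 and Gjb6 reach 75% and 56% of fibroblast-like wells.

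The set was then tested between astroglia and oligodendrocyte-like wells of the same mice, on counts summed per mouse with the mouse as a block. In edgeR's quasi-likelihood test with Benjamini-Hochberg adjustment, 785 of 10144 genes were called higher in astroglia (7.74%) and 1350 lower (13.3%), at an adjusted p under 0.05. All 9 members passed the filter on low counts, and 7 of them were called and higher in astroglia. Slc1a3 averaged 7566 ± 1376 CPM in astroglia and 72.2 ± 20.9 CPM in oligodendrocyte-like wells, a log2 difference of 6.43 ± 0.25 (SE) with an adjusted p of 1.02e-07. For Slc1a2 the averages were 6161 ± 1348 and 24.5 ± 15.998 CPM, with a log2 difference of 8.00 ± 0.56 and an adjusted p of 1.95e-06. Aqp4, Gja1, Gjb6, Slc7a10 and Slc6a11 were at most 3.68 CPM on average in oligodendrocyte-like wells, and all 8 mice had higher values in astroglia, so no fold is given for them. Glul and Kcnj10 were not called, with log2 differences of -0.19 ± 0.19 (adjusted p = 0.524) and -0.67 ± 0.41 (adjusted p = 0.285). The median log2 difference over all genes tested was -1.09, and -0.87 with DESeq2's size factors, which also turned the Glul value to 0.03.

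Genes that work beside the 9 were taken from 5 lists, and their calls in the same test are given next to theirs. Of 13 measured genes of amino acid transport and metabolism, 8 rose and 1 fell. The glutamate dehydrogenase gene Glud1 was at 618 ± 139.3 CPM in astroglia and 112.3 ± 21.7 CPM in oligodendrocyte-like wells, and the transporter heavy chain gene Slc3a2 at 712 ± 193.3 CPM in astroglia and 179.2 ± 44.3 CPM in oligodendrocyte-like wells (SD, n = 8 mice each). Slc38a3, through which astrocytes release glutamine, reached 1020 ± 424 CPM in astroglia and had 2 counts in all oligodendrocyte-like wells together. Slc1a4 (536 ± 275.7 CPM), Slc25a18 (534 ± 195.2 CPM) and the cystine and glutamate exchanger gene Slc7a11 (201.3 ± 111.4 CPM in astroglia) were likewise called higher, with at most 5.56 CPM on average in oligodendrocyte-like wells. Slc38a2, another amino acid transporter, was called lower, with 43.3 ± 22.1 CPM in astroglia against 936 ± 315.6 CPM in oligodendrocyte-like wells.

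Of 17 measured genes for potassium, sodium, water and end-feet, 13 rose and 2 fell. The sodium pump subunit gene Atp1b2 was at 3836 ± 1023 CPM in astroglia, against 16.3 ± 7.94 CPM in oligodendrocyte-like wells. Dtna and Dag1, which encode dystrobrevin and dystroglycan of the complex that holds Aqp4 in the membrane, were at 823 ± 195.5 and 498 ± 269.8 CPM in astroglia against 98.05 ± 19.8 and 47.1 ± 31.2 CPM in oligodendrocyte-like wells. The bicarbonate transporter gene Slc4a4 (733 ± 369.5 CPM), the membrane linker gene Ezr (234.95 ± 121.4 CPM) and the potassium channel gene Kcnk2 (32.3 ± 42.6 CPM in astroglia) averaged at most 1.01 CPM in oligodendrocyte-like wells. The receptor gene Gprc5b, named after its values were seen, and the chloride cotransporter gene Slc12a2 were called lower, Gprc5b with 177.5 ± 80.9 CPM in astroglia and 442 ± 132.98 CPM in oligodendrocyte-like wells and Slc12a2 with 1.45 ± 2.79 CPM in astroglia and 176.8 ± 26.7 CPM in oligodendrocyte-like wells.

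Of 5 measured gap junction and scaffold genes other than the members, none rose and 4 fell. The oligodendrocyte connexin genes Gjb1 and Gjc3 averaged at most 0.199 CPM in astroglia and 391 ± 67.3 and 1057 ± 265.8 CPM in oligodendrocyte-like wells. Gja1 and Gjb6 thus averaged at least 1003 CPM where both were near 0. Gfap helped to set the class and is left out of the next counts. Of the 10 other measured radial glia and stem cell genes, 5 rose and 1 fell. Sox9 (447 ± 97.03 CPM), Fabp7 (313.3 ± 120.3 CPM), Notch2 (181.1 ± 94.5 CPM), Hes5 (119.4 ± 124.5 CPM) and Id4 (65.2 ± 41.2 CPM in astroglia) rose, and the receptor gene Lpar1 fell. Of the 6 other measured genes of reactive astrocytes, 3 rose, namely Osmr (165.8 ± 103.9 CPM), S100a10 (123.97 ± 81.4 CPM) and Cd44 (13.5 ± 14.6 CPM in astroglia), and none fell.

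Single astroglia differed in how many of the 9 genes they showed. All 9 had a count in 46 of 96 wells, 8 in 24 wells, 7 in 11, 6 in 4, 5 in 7 and 4 in 4 wells, and no well showed fewer than 4. The number moved with the number of genes detected, since the median was 1212 genes in wells with 4 of the 9 and 2829 genes in wells with all 9. The part of detection in these counts was not tested. Thinned to 50000 counts per well, 42 wells still showed all 9. For correlations, the mean log2 (CPM plus 1) of a mouse's astroglia was subtracted from each of its wells, and the 96 wells were ranked together. Spearman's rho was highest for the connexin pair Gja1 and Gjb6 (0.541), then for Gjb6 with Slc7a10 (0.496), Slc1a3 with Gja1 (0.491) and Gja1 with Slc7a10 (0.486). Slc1a2 was nearly unrelated to the other glutamate transporter Slc1a3 (0.034), and Glul ran slightly against Slc7a10 (-0.23). These are descriptions over wells that share library depth, and Slc1a3 and Aqp4 themselves rose with the number of genes per well (rho 0.446 and 0.415).

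The genes whose levels followed each member most closely were taken as those of highest Pearson's r over 46 sums of a class and mouse, among 8664 genes. For Slc1a2 these were Gpm6a (0.927) and Scg3 (0.903), and for Slc1a3 they were F3 (0.811) and Tspan7 (0.789). F3 is one of the astroglia markers, so its pattern across classes is not independent of the rule that set them. Glul was nearest to Mt1 (0.842) and Neat1 (0.781), Aqp4 to Lgi4 (0.948) and Gm13872 (0.946), and Kcnj10 to Sox8 (0.954) and Cmtm5 (0.949). Gja1 followed Adhfe1 (0.875) and Hsd11b1 (0.843), and Gjb6 followed Hsd11b1 (0.971) and Ranbp3l (0.951). Slc7a10 was nearest to Slc14a1 (0.974) and Rfx4 (0.952), and Slc6a11 to Gpc5 (0.939) and Nwd1 (0.934). The sums share mice and class, so these values describe the pattern across classes only.

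Astroglia were next divided by Hopx. At least 1 Hopx count was found in 49 of 96 astroglia, called Hopx-positive, with a median of 65.3 CPM and a range of 1.745 to 406 CPM, and 47 were Hopx-negative. Hopx-positive wells were 11 of 23, 4 of 7, 9 of 12 and 6 of 16 astroglia in mimic mice 2, 4, 6 and 8, and 3 of 7, 9 of 13, 3 of 7 and 4 of 11 in control mice 1, 3, 5 and 7. Hopx-positive wells had a median of 3011 genes and 572971 counts, and Hopx-negative wells 2345 genes and 605411 counts, so the Hopx-positive wells held more genes. The share of counts on 18S ribosomal RNA had medians of 11.2% and 9.60% in Hopx-positive and Hopx-negative wells, and the part of these differences in the results below was not tested. Summed oligodendrocyte markers were low in both, with medians of 30.6 and 10.6 CPM and highest wells of 1413 and 2006 CPM, and none of the 9 oligodendrocyte markers was at 0 throughout either group.

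Slc7a10 was the one member that was lower in Hopx-positive astroglia in each of the 8 mice. In the mimic mice 2, 4, 6 and 8, Slc7a10 was at 369.3, 283.3, 308.5 and 1180 CPM in Hopx-positive wells and at 782, 1588, 977 and 1413 CPM in Hopx-negative wells. In the control mice 1, 3, 5 and 7, it was at 193.9, 840, 294.6 and 531 CPM in Hopx-positive wells and at 645, 1036, 914 and 791 CPM in Hopx-negative wells. The averages were 500.1 ± 341.5 CPM in Hopx-positive and 1018 ± 324.96 CPM in Hopx-negative astroglia (SD, n = 8 mice), and the ranges overlapped between mice. Of 5650 genes tested, 12 were lower in all 8 mice (0.212%). The log2 difference was -1.14 ± 0.38 (SE), with an unadjusted p of 0.00666 in edgeR's quasi-likelihood test and an adjusted p of 0.9995 over all genes, so it did not pass. DESeq2 gave -1.19 with an adjusted p of 0.0136, against adjusted p-values of 0.975 to 1 in the other alternatives, and the value ran between -0.95 and -1.31 over all of them. A Slc7a10 count was found in 40 of 49 Hopx-positive and 35 of 47 Hopx-negative wells, so detection was not lower, while the medians were 356.4 and 780 CPM per well. Slc7a10 lies on mouse chromosome 7 at 35186385 to 35201114 (GRCm38, plus strand).

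None of the other 8 members was called. Slc1a2 averaged 5904 ± 1236 CPM in Hopx-positive and 6649 ± 1952 CPM in Hopx-negative astroglia, Slc1a3 7830 ± 2043 and 7598 ± 1054 CPM, Glul 4080 ± 1304 and 4183 ± 982 CPM, and Gja1 2759 ± 959 and 3049 ± 793 CPM. Their log2 differences were -0.08 ± 0.17, 0.08 ± 0.12, 0.0012 ± 0.17 and -0.10 ± 0.24, each smaller than its standard error. Gjb6 was at 916 ± 288.1 CPM in Hopx-positive and 1202 ± 338.6 CPM in Hopx-negative astroglia (log2 -0.34 ± 0.31), and Aqp4 at 1050 ± 358.2 and 935 ± 440 CPM (log2 0.30 ± 0.36). Aqp4 was also found in more Hopx-positive wells, 46 of 49 against 33 of 47, and in 85.7% against 70.2% after thinning to 50000 counts. These shares pool wells over mice, and thinning evens the counts but not the number of genes per well. By mouse, the Aqp4 level was higher in Hopx-positive wells in 5 of 8. Kcnj10 and Slc6a11 varied most, with standard errors of 0.67 and 0.87 on the log2 scale.

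No gene at all was called between Hopx-positive and Hopx-negative astroglia by edgeR (0%), with 2.02% of the 5650 genes at an unadjusted p under 0.05, while DESeq2 called 5.35%, 1 member (Slc7a10) among them. Hopx itself, which set the split, averaged 81.7 ± 27.9 CPM against 0 CPM. Its log2 difference in edgeR was 11.1 ± 2.64 with an adjusted p of 0.9995, so this built-in difference was not called. The absence of calls therefore does not show that the 2 groups are alike. The 5 lists held no called gene either. Their medians, on the log2 scale, were -0.36 for amino acid transport and metabolism (12 genes), -0.16 for potassium, sodium, water and end-feet (17 genes), -0.28 for gap junctions (3 genes), 0.91 for radial glia and stem cells (10 genes) and 0.38 for reactive astrocytes (6 genes), beside 0.33 over all genes tested. Fabp7, a lipid-binding protein of radial glia, was at 426 ± 238.4 CPM in Hopx-positive and 197.7 ± 80.7 CPM in Hopx-negative wells (unadjusted p = 0.105 in edgeR). Among amino acid genes, Slc38a2 had the smallest unadjusted p (0.013 in edgeR), with 70.3 ± 59.7 CPM in Hopx-positive and 14.9 ± 33.2 CPM in Hopx-negative wells, where 5 of 8 mice were at 0. Got1, an aminotransferase gene, was at 65.9 ± 88.7 and 26.6 ± 54.02 CPM in Hopx-positive and Hopx-negative wells (unadjusted p = 0.0495 in edgeR), and the glutamine transporter gene Slc38a3 at 776 ± 324.7 and 1274 ± 668 CPM. Among genes of ions, water and end-feet, the chloride channel gene Clcn2 was at 136.2 ± 144.8 CPM in Hopx-positive and 112.2 ± 175.9 CPM in Hopx-negative wells, the channel gene Aqp9 at 23.4 ± 23.6 and 5.52 ± 7.83 CPM, and Hepacam, a cell adhesion gene of end-feet, at 742 ± 219.1 and 1169 ± 549 CPM. Osmr, a cytokine receptor gene, was at 79.4 ± 121.2 and 259.8 ± 131.1 CPM, with 4 of 8 mice at 0 in Hopx-positive wells. The difference between Hopx states was also compared between mimic and control mice as an interaction, and edgeR called no gene (0%), with 1.63% of genes at an unadjusted p under 0.05 and 3.72% called by DESeq2, no member among them. For Slc7a10 the interaction was -0.23 ± 0.79 on the log2 scale.

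**Figure D3:**
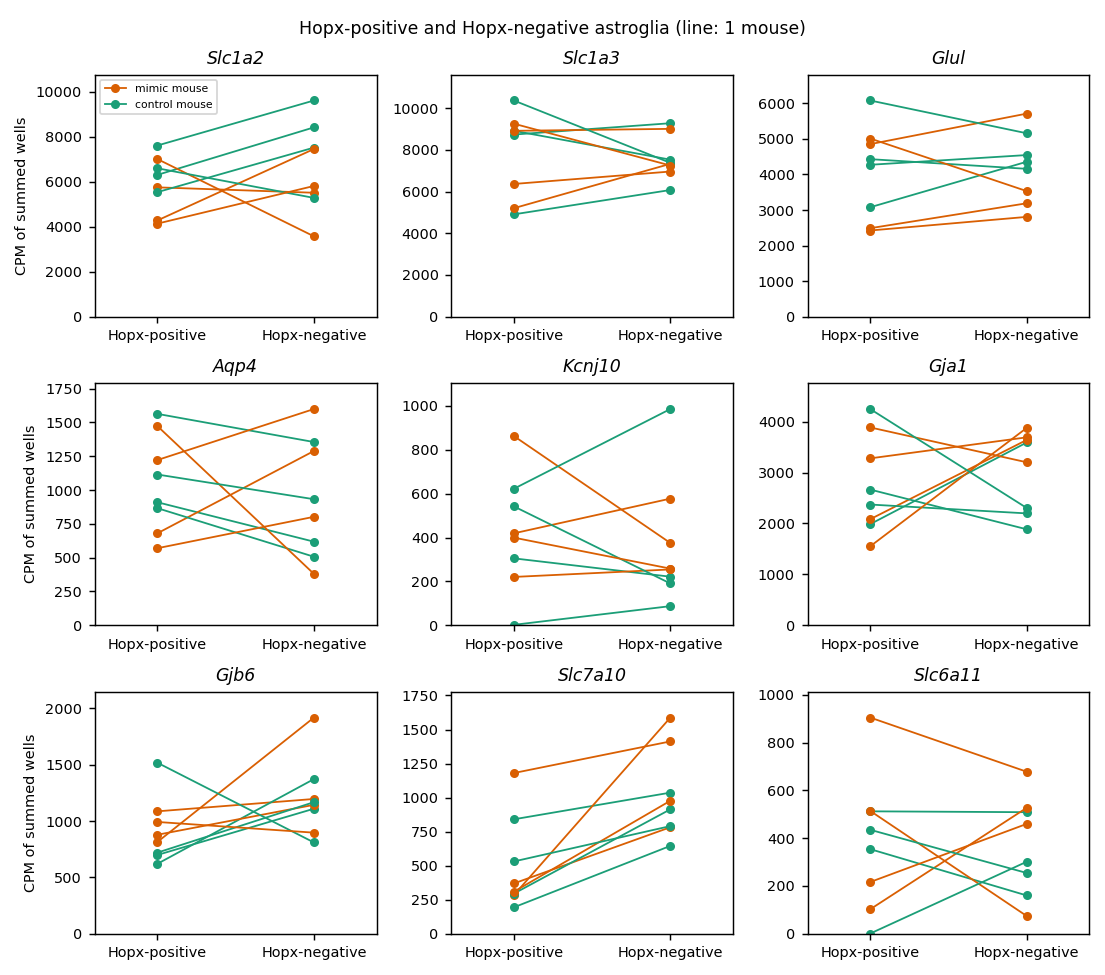
CPM summed over the Hopx-positive (left) and Hopx-negative (right) astroglia of each mouse, with 1 line per mouse coloured by treatment, on linear axes from 0. All 8 lines of Slc7a10 lie lower on the Hopx-positive side, while the lines of the other genes cross.

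The mimic was compared with the control in astroglia, the class in which most of the members had their highest mean level. Slc1a2 was at 5628, 5242, 5003 and 5125 CPM in the mimic mice 2, 4, 6 and 8, and at 7500, 6171, 8849 and 5773 CPM in the control mice 1, 3, 5 and 7. All 4 mimic mice were below all 4 control mice, a pattern that 55 of the 8937 genes tested shared (0.615%). Mimic mice averaged 5250 ± 270.4 CPM and control mice 7073 ± 1395 CPM (SD, n = 4 each), and the mimic mice spread far less than the control mice. The log2 change was -0.49 ± 0.18 (SE) with an unadjusted p of 0.0187 in edgeR's quasi-likelihood test and an adjusted p of 1 over all genes, so it did not pass. DESeq2 gave an adjusted p of 0.301, and the other alternatives 0.851 to 1. Mimic mice were lower on both sort dates, with 5435 and 6835 CPM on 17 April and 5064 and 7311 CPM on 19 April in mimic and control mice. Under the assignment of wells through sample titles, the value was 0.06, so the direction rests on the map. Without control mouse 5, it was -0.36.

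The other member with a site, Glul, was at 5295, 2621, 4675 and 2902 CPM in the mimic mice and at 4277, 3487, 5512 and 4445 CPM in the control mice. The groups overlapped, with averages of 3873 ± 1313 and 4430 ± 833 CPM in mimic and control mice and a log2 change of -0.24 ± 0.27 (unadjusted p = 0.399). For Slc1a3 the mimic mice averaged 7346 ± 1454 CPM and the control mice 7787 ± 1475 CPM (log2 -0.16 ± 0.20). The 6 other genes had values above 0 on the log2 scale, between 0.04 for Gjb6 and 0.32 for Kcnj10, with standard errors of 0.24 to 0.65. Gja1 averaged 3006 ± 687 and 2651 ± 367.7 CPM, Gjb6 1040 ± 86.9 and 966 ± 90.98 CPM, and Aqp4 1085 ± 305.9 and 972 ± 381.1 CPM in mimic and control mice. Slc7a10 averaged 828 ± 388 and 681 ± 185.5 CPM, Slc6a11 413 ± 239.9 and 327.9 ± 134.9 CPM, and Kcnj10 405 ± 164.5 and 342.95 ± 287.1 CPM. None of these 8 genes separated the 2 treatments.

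**Figure D4:**
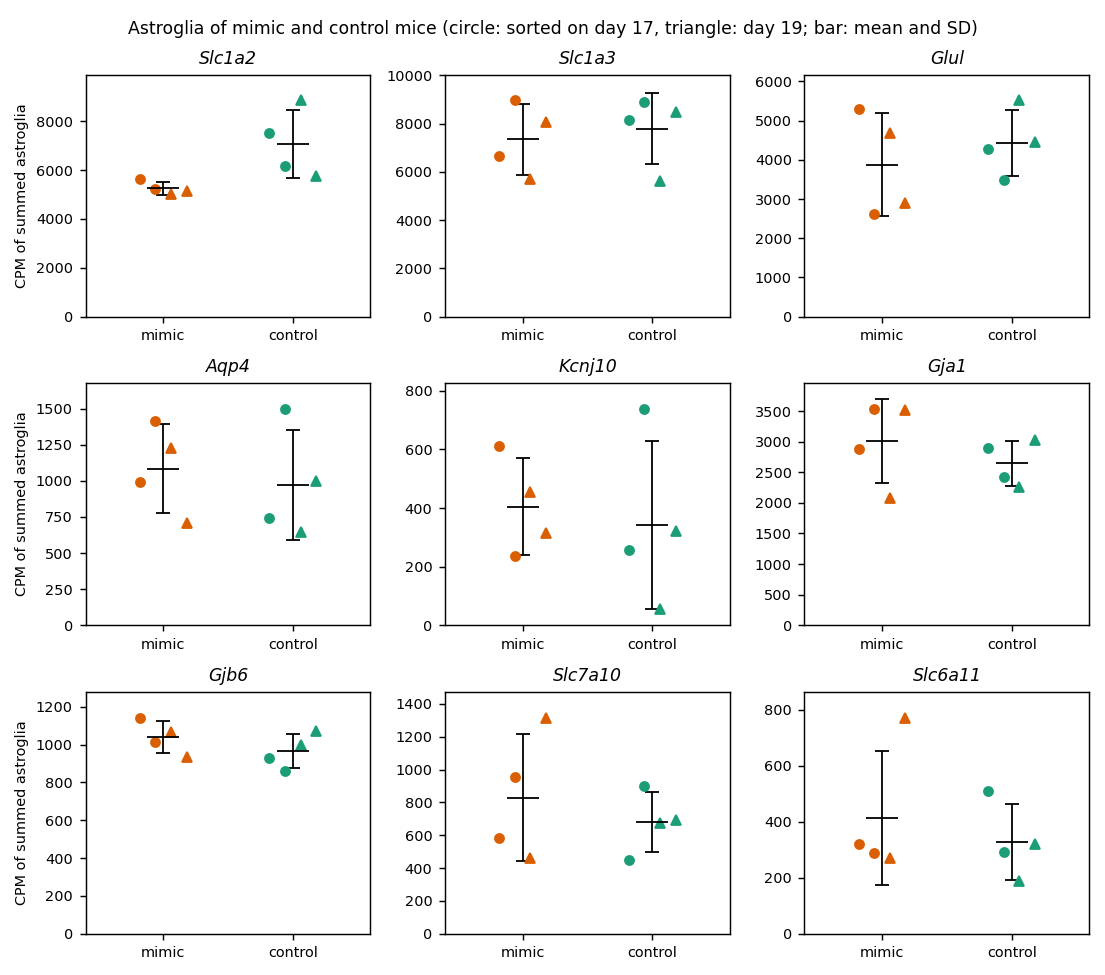
CPM summed over the astroglia of each mouse for the 9 genes, in mimic mice (left) and control mice (right), on linear axes from 0, with circles for mice sorted on 17 April, triangles for 19 April, and the mean with SD. The 4 mimic mice of Slc1a2 sit between 5003 and 5628 CPM, below all control mice.

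In astroglia no gene of 8937 was called by edgeR (0%), with 1.51% at an unadjusted p under 0.05, and DESeq2 called 0.492%, none of them a member. No gene of the 5 lists was called. C4b, a complement gene raised in reactive astrocytes, was at 305.2 ± 137.7 CPM in mimic mice, against 99.04 ± 34.5 CPM in control mice (unadjusted p = 0.0128 in edgeR). Slc4a4 was at 964 ± 404 and 502 ± 113.3 CPM (unadjusted p = 0.0392), Slc38a3 at 785 ± 167.3 and 1255 ± 493 CPM (unadjusted p = 0.0747) and Gfap at 1554 ± 1134 and 1118 ± 368.1 CPM (unadjusted p = 0.33). The lists had medians of 0.31 for amino acid genes (14 genes), 0.22 for potassium, sodium, water and end-foot genes (17), -0.27 for gap junctions (3), 0.01 for radial glia (13) and 0.38 for reactive astrocytes (7), beside 0.21 over all genes on the log2 scale. The 18S share of counts had a median of 9.64% in the astroglia of mimic mice and 11.5% in those of control mice, and its part in these values was not tested.

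When all kept wells of a mouse were summed, all 9 members had higher values in mimic mice, with log2 changes between 0.09 ± 0.20 for Glul and 0.91 ± 0.61 for Slc6a11 and a median of 0.45, beside 0.007 over all genes. Under the assignment through sample titles, 6 members were higher and 3 lower, with a median of 0.12. Leaving out single mice moved the median between 0.19 without mimic mouse 2, where again 6 were higher and 3 lower, and 0.71 without control mouse 7. No gene of 15380 was called by edgeR (0%), with 3.75% at an unadjusted p under 0.05, and DESeq2 called 0.514%, no member among them. Gja1 was at 763, 237.3, 291.1 and 573 CPM in mimic mice 2, 4, 6 and 8 and at 215.2, 361.7, 141.6 and 370.6 CPM in control mice 1, 3, 5 and 7, so the groups overlapped. Mimic mice held 58 of the 96 astroglia, and in such sums more cells of a type and more RNA per cell cannot be told apart. In oligodendrocyte-like wells, 6 members passed the low-count filter, and no gene of 10809 was called by edgeR (0%), with 2.35% at an unadjusted p under 0.05, and DESeq2 called 0.167%, no member among them. Glul was at 3918, 4196, 4417 and 2880 CPM in mimic mice and 3547, 3769, 3781 and 3301 CPM in control mice there.

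In the many-gene wells, Slc1a2 had values in the other direction. Their sums, 2 wells per mouse, held 1030, 545, 823 and 940 CPM of Slc1a2 in mimic mice 2, 4, 6 and 8, and 722, 677, 153.4 and 143.7 CPM in control mice 1, 3, 5 and 7. Mimic mouse 4 lay below control mice 1 and 3, so the groups overlapped. The log2 change was 1.34 ± 0.48, with an unadjusted p of 0.0185 and an adjusted p of 0.9998 in edgeR, and DESeq2 gave an adjusted p of 0.29995. Without any low-count filter the value was 1.32 with an adjusted p of 0.000268 in edgeR, and Slc1a2 was then called, while the remaining alternatives gave 0.9994 to 1. The difference lay almost wholly in mice of the second date, with 788 and 700 CPM on 17 April and 882 and 148.5 CPM on 19 April in mimic and control mice. No gene of 10190 was called by edgeR (0%), with 2.34% at an unadjusted p under 0.05, and DESeq2 called 1 gene, not a member. Of the 9 members, 8 had values above 0, between 0.11 ± 0.19 for Glul and 1.34 for Slc1a2, while Kcnj10 was at -0.02 ± 0.26. The median of the members was 0.62, beside 0.016 over all genes. Without mimic mouse 8, 3 members were above 0 and 6 below, with a median of -0.08. The median was 0.27 without mimic mouse 2, 0.32 without control mouse 5 and 1.03 without mimic mouse 4. The labels do not say what these wells hold, and whether the astroglia and many-gene values of Slc1a2 differ was not tested.

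**Figure D5:**
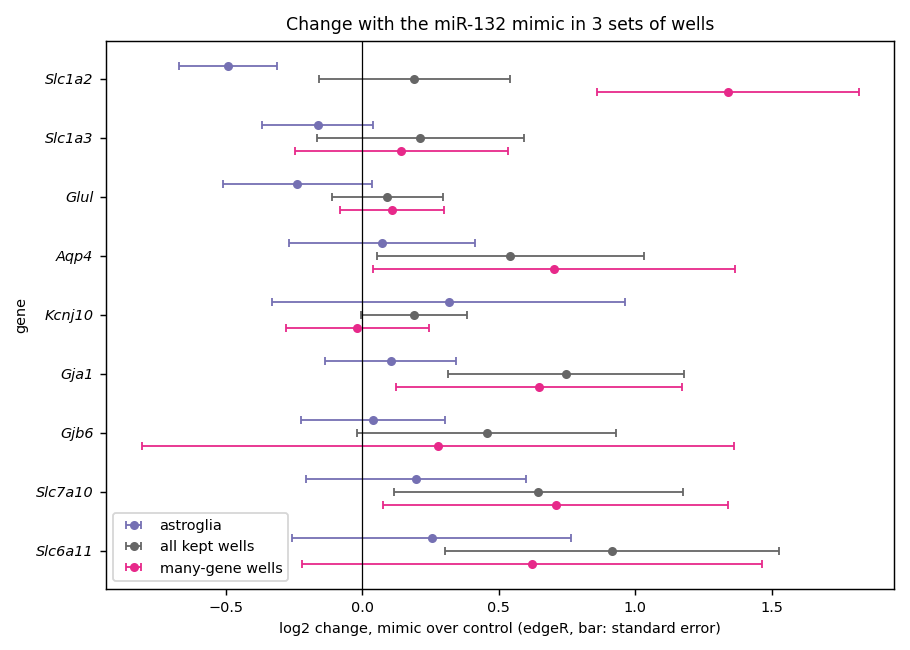
Log2 change of mimic over control from edgeR for the 9 genes (rows) in astroglia, all kept wells and many-gene wells, as points with standard errors and a line at 0. Slc1a2 lies at -0.49 in astroglia and at 1.34 in many-gene wells, and every gene is above 0 in all kept wells.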

How the data were processed

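Whole-number read counts per gene and well were deposited by the authors as 1 table. Libraries were made with Smart-seq2, which has no molecular identifiers and does not mark strand. Genes on opposite strands therefore cannot be told apart where they overlap, and amplified reads are not independent molecules. The submitters' processing notes name STAR and FastQC, then Subread with its counter featureCounts 1.5.1, then Seurat 2.3.1, and the build mm10, with settings not given in the sources used here. No doublet caller was run on the sorted cells.

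The 9 genes, the marker lists and the 5 partner lists were chosen with earlier results of these data known. Wells were kept from 50000 counts and 1000 genes, and those above 6000 genes were set apart. A class was the list of highest mean log2 (CPM plus 1) with at least 3 markers detected and a margin of 1 log2 unit. Counts were summed per mouse and class for mice with at least 3 wells (5 for the treatment tests and for astroglia against oligodendrocyte-like wells, 2 for many-gene wells), and CPM uses all counts of a sum. edgeR 4.0.16 (quasi-likelihood, TMM, filterByExpr, two-sided, R 4.3.3) was fitted over all genes with Benjamini-Hochberg adjustment, with the mouse as block for Hopx and class and with sort date as covariate for treatment. DESeq2 1.42.0 was an alternative. Neighbouring class levels were compared by exact sign-flip tests of log2 (CPM plus 1) over mice (Python 3.11.15, scipy 1.17.1). A share of 0 wells allows 3 counts of the wells, which covers counting error only. The edgeR test was tested on simulated data, where it missed most of the changed genes for Hopx state and for the mimic in astroglia. A gene that was not called is not thereby shown to be unchanged. Partner genes were named where their adjusted p was under 0.05, at most 8 per list and comparison by p, and otherwise from the 3 of smallest p. A few partner genes that the rule names are not reported here. Similar genes were the 2 of highest r with at least 50 CPM in some class. Alternatives were another assignment of wells to mice, Leiden clusters made without the 9 genes, other Hopx limits, a mitochondrial limit of 15%, other normalization and filters, and each mouse left out. A filter keeping genes found in 10% or more of the wells, and for the interaction DESeq2 and its size factors, were added after seeing the data.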

Additional observations from a re-analysis of the deposited data

Results flagged for a closer look

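Among 72 groups of 4 mice per gene and set of wells, 5 held a mouse far from the others. Groups with all mice at 0, counted in the 72, could not hold such a mouse. Chance alone would set apart about 1 in 20 groups of normally distributed values. That rate does not hold for groups near 0, such as those of Aqp4 and Gjb6 below. In astroglia, mimic mouse 8 had 771.7 CPM of Slc6a11 against 272.03, 288.03 and 320.98 CPM in the other mimic mice. Without that mouse the log2 change of Slc6a11 was -0.27 in place of 0.25. The other 4 lay in oligodendrocyte-like wells. Control mouse 5 had 281.8 CPM of Kcnj10 against 405.8, 414.6 and 421.4 CPM in the other control mice. The same mouse had 7.2 CPM of Aqp4 against at most 0.4 CPM, and 9.0 CPM of Gjb6 against at most 0.2 CPM. Mimic mouse 4 had 3.9 CPM of Gjb6 where the other mimic mice rounded to 0.0.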

How the results depend on the processing

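Treatment values depend on how wells were assigned to mice, and the small number of astroglia limits every test on them. In the assignment by sample titles, the log2 change in astroglia was 0.06 for Slc1a2, 0.14 for Glul and -0.37 for Slc6a11, and over all kept wells -0.05 for Slc1a3, -0.01 for Slc1a2 and -0.51 for Slc6a11. The many-gene fit could not be made in that assignment, because a single control mouse then holds such wells. The cause of these and the following changes was not tested.

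Of the genes tested, DESeq2 called 5.35% for Hopx state, 3.72% for the interaction, and for the mimic 0.492% in astroglia, 0.167% in oligodendrocyte-like wells, 0.514% in all kept wells and 0.00981% in many-gene wells. With no low-count filter in edgeR the shares were 0.00497%, 0.00497%, 0.00994%, 0.142%, 0.263% and 0.127% in that order. Leaving out each mouse gave 0 to 0.0191% for Hopx state, or 1 gene without mimic mouse 2 and 1 without mimic mouse 8.

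Between Hopx-positive and Hopx-negative astroglia, Glul changed sign to -0.05 with DESeq2 and with its size factors, -0.0006 without a filter, -0.02 in the title assignment, -0.01 with Hopx from 10 CPM and -0.13 with Hopx read on thinned wells. Kcnj10 changed to -0.04 with DESeq2 and with its size factors, -0.12 in Leiden clusters, -0.13 from 10 CPM and -0.17 on thinned wells. Slc1a3 changed to -0.04 from 10 CPM and -0.13 on thinned wells, and Aqp4 to -0.04 on thinned wells. For the mimic in astroglia, Gjb6 changed to -0.03 with DESeq2 and with its size factors and to -0.01 in Leiden clusters. Between astroglia and oligodendrocyte-like wells, Glul changed to 0.03 with DESeq2's size factors and 0.05 with genes in at least 10% of wells.

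Leaving out each mouse let these log2 values cross 0. For Hopx state the ranges were -0.13 to 0.06 for Glul, -0.22 to 0.43 for Kcnj10, -0.25 to 0.04 for Gja1, -0.25 to 0.0002 for Slc1a2 and -0.63 to 0.33 for Slc6a11. For the mimic in astroglia they were -0.12 to 0.85 for Kcnj10, -0.05 to 0.27 for Gja1, -0.05 to 0.12 for Gjb6, -0.10 to 0.34 for Aqp4, -0.27 to 0.54 for Slc6a11 and -0.21 to 0.48 for Slc7a10. In all kept wells they were -0.03 to 0.25 for Glul, -0.0048 to 0.32 for Kcnj10, -0.21 to 0.78 for Gjb6, -0.09 to 0.48 for Slc1a3 and -0.24 to 0.47 for Slc1a2. In many-gene wells they were -0.08 to 0.24 for Glul, -0.26 to 0.14 for Kcnj10, -0.08 to 1.06 for Gja1, -0.60 to 1.69 for Gjb6, -0.43 to 0.38 for Slc1a3, -0.0034 to 1.14 for Aqp4 and -0.22 to 1.21 for Slc6a11.

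Slc7a10 stayed below 0 for Hopx state in every alternative run, and Slc1a2 stayed between -0.36 and -0.57 in astroglia in every alternative except the title assignment. For treatment, no paired analysis was possible because control and mimic mice share no replicate numbers, while Hopx state and class were compared within mice, with the mouse as block.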
